A study of Mus musculus with 12 samples.

Results

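The axon and dendrite skeleton of neurons was followed through 10 genes in Neuro-2a cells: the neurofilament subunits Nefl, Nefm and Nefh, the related neuronal intermediate filament genes Ina and Prph, the microtubule-associated protein genes Mapt, Map2 and Map1b, the neuronal beta-tubulin Tubb3 and the tubulin-binding stathmin Stmn2. They were chosen by gene symbol from the 15767 genes of the deposited tables, and all 10 were present. Neuro-2a derives from a mouse neuroblastoma and is labelled wild type in all 12 libraries, so every value comes from 1 line. The 3 groups hold 4 libraries each and differ in the transfected small RNA: a control (miR-Con), a mimic that imitates miR-155, or an inhibitor directed at it. Serum and antibiotics were absent during every transfection, the medium was changed after 4 h, and culture went on until day 2. The titles number the libraries 1 to 4 within each group. What a number stands for, and whether a group's 4 libraries are 4 cultures, is not in the labels, and neither uptake nor the level of miR-155 was measured here.

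Neurofilaments are rope-like polymers that fill axons and set their calibre, and they are built from light, medium and heavy subunits together with alpha-internexin or, in peripheral and sympathetic neurons, peripherin. Microtubules run beside them as tracks for transport. Tau (Mapt), MAP2 and MAP1B bind and stabilise these tracks, MAP2 mainly in dendrites and tau and MAP1B mainly in axons, whereas stathmin-2 binds free tubulin and favours microtubule turnover at growth cones.

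The reagents are made for miR-155. The form taken for the search was miR-155-5p, a microRNA of chr16:84714143-84714165 (GRCm38.p6, plus strand). Its RefSeq sequence is shown with the seed, bases 2 to 8, in capitals, followed by the matching sites in the cytoskeleton genes. Capitals in Map2 mark the 7 bases that pair with the seed, and in Stmn2 the 6 bases that pair with bases 2 to 7 and the A after them, opposite base 1.
mmu-miR-155-5p: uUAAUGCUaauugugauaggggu
Map2, first site: aaataaggcagAGCATTAtcaaaccgagtg
Map2, second site: atgccaaatgtAGCATTAtgtcagtggtag
Stmn2: agctggttgctGCATTAAaaacacaaacaa
The search covered the longest annotated 3' UTR of each gene in GENCODE M21 (GRCm38) for the 8mer AGCATTAA, the 7mer-m8 AGCATTA and the 7mer-A1 GCATTAA on the transcribed strand, each site being counted once in its longest class. Of the 10 genes, 2 held a site. Map2 had 2 7mer-m8 sites, starting 1601 and 3002 bases after the stop codon in a 3' UTR of 3576 bases, and Stmn2 had 1 7mer-A1 site at base 947 of 1281. None of the 10 had an 8mer. Among 15402 genes with a 3' UTR, 12.8% had a site of any class and 3.02% an 8mer. The median 3' UTR over all these genes was 1067 bases, and the shares were not matched for length. The 3' UTRs of the other 8 genes ran from 308 bases (Prph) to 4360 bases (Map1b).

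The libraries held 60695388 to 74200532 counts each, and 13014 genes passed the filter on low counts. Libraries are compared by CPM, a count relative to the library size after TMM scaling, and genes by TPM, which also divides by length. The label was checked against markers. All 12 sympathetic neuroblastoma markers were in the table, with a summed level of 5992 to 7337 TPM. Their levels were uneven. Chgb and Hand2 had means of 2799 and 1776 TPM over the libraries, and the catecholamine synthesis genes Th and Ddc only 1.15 and 2.57. The lists for astrocytes, oligodendrocytes and Schwann cells, fibroblasts, immune and endothelial cells summed to at most 4.77 TPM in any library, and Aqp4, Olig2, Col3a1, Cd3e and Kdr were not listed in the tables used here. In such bulk libraries, fewer cells of a type and less RNA per cell cannot be told apart.

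Neuro-2a cells held a lopsided set of neuronal filament transcripts. Prph, encoding peripherin, was the most abundant of the 10 genes at 1473 ± 75.8 TPM in control (SD, n = 4) and ranked 70 of 15767 genes. Nefh, the heavy neurofilament subunit, stood at 286.4 ± 58.2 TPM and Ina, alpha-internexin, at 228.6 ± 26.1. Nefl and Nefm, the light and medium subunits with which the heavy subunit usually assembles, were near or at 0. Nefl had 13 counts in inhibitor 4, or 0.372 TPM, and 0 counts in the remaining 11, for which a floor of 3 counts equals 0.0756 to 0.0924 TPM. Nefm had 28 counts in all, spread over 5 libraries, with 5 in control 3, 8 in control 4, 4 in inhibitor 1, 7 in inhibitor 3 and 4 in mimic 3. Its highest level was 0.106 TPM, and 0 counts allow up to 0.0438 TPM. Such floors cover counting error only. Both genes were left out by the filter, and 8 of the 10 genes entered the main tests. With no filter, neither Nefl nor Nefm was called in any transfection comparison (adjusted p = 1 for each, edgeR), on these few counts. They overlap each other on opposite strands in the annotation used here, and reads of overlapping partners cannot be told apart without a stated strand setting.

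Within the intermediate filament genes, Prph supplied 41.4% to 50.3% of the summed TPM of 15 listed genes, lamins included, Nefh 7.73% to 10.5% and Ina 6.55% to 8.27%. Nefh exceeded Ina in 12 of 12 libraries, by 1.16 to 1.51 times. The non-neuronal vimentin gene Vim stood at 722.3 ± 124.8 TPM in control, Nes, the progenitor filament nestin, at 20.8 ± 9.49 and the glial Gfap at 0.48 ± 0.127.

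On the microtubule side, Tubb3 was the next most abundant after Prph, at 1142 ± 188.2 TPM in control, and made up 4.19% to 4.81% of the summed TPM of 15 listed tubulin genes. Map1b measured 417.4 ± 139.2 TPM, Stmn2 294.7 ± 7.99, Mapt 61.5 ± 12.1 and Map2 6.64 ± 1.80. The 3 binding-protein genes thus spread over a wide range, with Mapt 7.95 to 11.7 times Map2 and Map1b 58.5 to 73.1 times Map2 within a library. Doublecortin (Dcx), a microtubule-binding protein of migrating neurons, had a mean of 0.00807 TPM over the 12 libraries.

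The order by control mean was Prph, Tubb3, Map1b, Stmn2, Nefh, Ina, Mapt, Map2, Nefm and Nefl. Over all 12 libraries the ranges of Prph and Tubb3, of Map1b and Stmn2, of Stmn2 and Nefh, of Nefh and Ina and of Nefm and Nefl overlapped, whereas the other 4 neighbours were separate. Prph exceeded Tubb3 within every library, by 1.05 to 1.45 times. Stmn2 and Nefh had no stable order, with Stmn2 higher in 7 of 12 libraries.

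**Figure D1:**
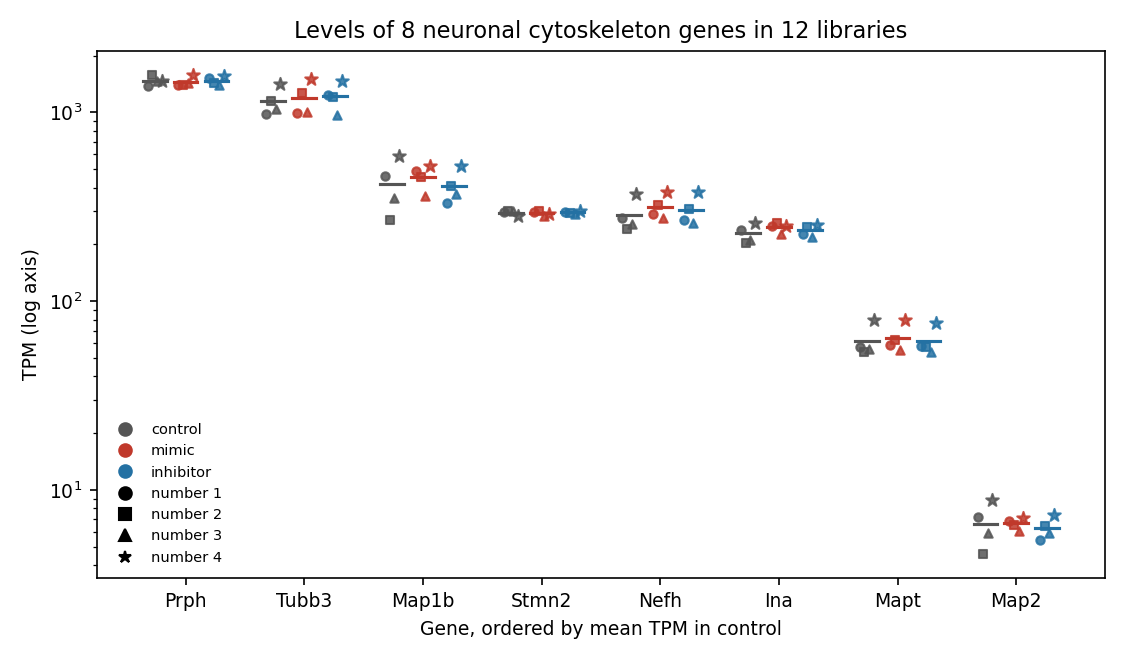
TPM on a log axis for the 8 genes above the filter. Each point is a library, coloured by transfection and shaped by replicate number, and each bar is a group mean of 4. Stmn2 lies between 282.8 and 301 TPM in all libraries. The stars of number 4 stand above the other points of their group for Nefh, Mapt, Map2, Map1b and Tubb3.

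The mimic and the inhibitor were each compared with control, and with each other, to ask whether these genes respond to more or less miR-155. None of the 8 genes passed an adjusted p of 0.05 in any of the 3 comparisons (edgeR quasi-likelihood test with Benjamini-Hochberg adjustment, adjusted p = 1 for each), and 0 had an unadjusted p under 0.05. With number 4 as a term in the edgeR fit, 1 of them, Nefh, had an unadjusted p of 0.038 in mimic against control (adjusted p = 0.999). In no comparison did the libraries of 1 group lie wholly above or below those of the other for any of the 8 genes, where 0.684%, 0.645% and 0.861% of all genes showed such a separation for the mimic and the inhibitor against control and for the mimic against the inhibitor. The background of calls was the same, with 0% of 13014 genes called in each comparison, and with 71 genes in mimic against control, 67 in inhibitor against control and 77 in mimic against inhibitor at an unadjusted p under 0.05. DESeq2 called 3, 1 and 6 genes, none of them among the 10. The 3 comparisons share libraries, so their values are not independent of each other. Their fit held group alone. Where a gene differed by replicate number, that difference counted as spread within groups and widened its interval. The absence of calls therefore does not show that these genes do not respond.

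Map2 and Stmn2 are the genes with seed sites. Map2 measured 7.18, 4.60, 5.94 and 8.83 TPM in controls 1 to 4. It stood at 6.90, 6.56, 6.06 and 7.15 TPM in mimics 1 to 4, and at 5.45, 6.49, 5.92 and 7.36 TPM in inhibitors 1 to 4. The mimic values lay inside the span of the controls, as did those of the inhibitor. Its log2 fold change was -0.01 in mimic against control (95% interval -0.35 to 0.32) and -0.07 in inhibitor against control (-0.40 to 0.27). Stmn2 measured 297.0, 299.5, 299.4 and 282.8 TPM in controls 1 to 4. The mimics stood at 297.7, 300.3, 284.4 and 288.9 TPM and the inhibitors at 296.4, 293.1, 290.9 and 301.0 TPM. The 3 groups overlapped, and the log2 fold changes were -0.04 in mimic against control (-0.15 to 0.07) and 0.0035 in inhibitor against control (-0.11 to 0.12). The direction of Map2 in mimic against control depended on the processing, at 0.03 with limma on log2(TPM + 1) and 0.09 with replicate numbers 1 to 3 only.

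The remaining genes gave mimic against control log2 fold changes from -0.05 for Prph to 0.12 for Nefh. Nefh had the highest value (95% interval -0.21 to 0.46) and was above control at all 4 numbers, by 0.04, 0.29, 0.10 and 0.07 in log2 CPM. In the inhibitor it was also above control at all 4 numbers, by 0.05, 0.24, 0.000059 and 0.06, and these differences share the control libraries with those of the mimic. The means were 199.9 CPM in mimic, 195 in inhibitor and 183.5 in control. Map1b had the widest interval, -0.33 to 0.55 around 0.11. In inhibitor against control the values ran from -0.03 for Map1b to 0.09 for Tubb3, and in mimic against inhibitor from -0.06 for Tubb3 to 0.14 for Map1b. In mimic against inhibitor the interval was narrowest for Stmn2, -0.16 to 0.07, and widest for Map1b, -0.30 to 0.58.

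**Figure D2:**
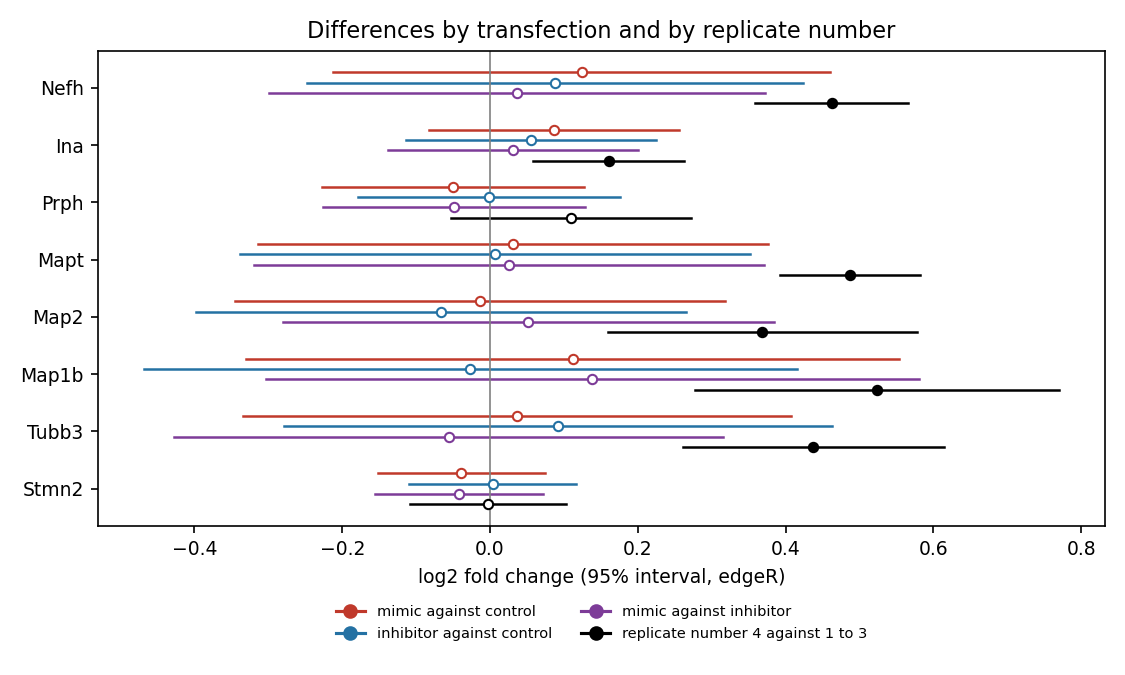
Log2 fold changes with 95% intervals from edgeR for the 8 tested genes, with 3 comparisons of transfection groups and the comparison of replicate number 4 with numbers 1 to 3. Filled points passed an adjusted p of 0.05. Every transfection interval crosses 0, and the black intervals of Nefh, Mapt, Map1b, Tubb3, Map2 and Ina do not.

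More genes passed the test for replicate number than for any transfection comparison. The libraries numbered 4 were already known from earlier results of these data to stand apart, and the number is a label of the libraries, not a treatment. With group in the model, a test over the 4 numbers called 4 of the 8 genes, against 27.3% of all 13014 genes: Mapt (adjusted p = 0.000138, edgeR), Nefh (0.00031), Tubb3 (0.00622) and Map1b (0.0206). Ina (0.0537) and Map2 (0.0578) missed the threshold, and Prph (0.622) and Stmn2 (0.94) were far from it. The call for Map1b was lost with unscaled library totals (adjusted p = 0.0532), with limma on log2(TPM + 1) (0.0972) and without control 3 (0.0582), control 4 (0.152), mimic 3 (0.0569) or inhibitor 4 (0.113). Those for Mapt, Nefh and Tubb3 held in every alternative run for this test. DESeq2 called 6 genes, Ina and Map2 in addition.

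Number 4 was then set against the mean of numbers 1 to 3. The p-values rest on the scatter of same-numbered libraries after group is accounted for, not on the spread between numbers. Of the 8 genes, 6 were higher and 0 lower, where 41.5% of all genes were called, 20.4% higher and 21.1% lower. The 3 libraries numbered 4 lay above the other 9 in CPM for the same 6 genes, Nefh, Ina, Mapt, Map2, Map1b and Tubb3, where 17.9% of all genes showed such a separation upward and 19% downward.

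Among the filament genes, Nefh stood at 276.8, 240.9, 257.1 and 370.9 TPM in controls 1 to 4. The mimics gave 290.5, 321.6, 277.0 and 378.1 TPM and the inhibitors 269.5, 306.3, 258.5 and 379.5 TPM. The fourth library was the highest in each group, and no other library reached the range of these 3. The fold was 1.38 (log2 fold change 0.46 ± 0.0471 SE, adjusted p = 3.44e-05, edgeR). Ina rose less, 1.12-fold (log2 0.16 ± 0.0464, adjusted p = 0.0172), with 260.7, 250.5 and 253.7 TPM in control 4, mimic 4 and inhibitor 4 and 204.3 to 260.3 TPM in the others, so the TPM ranges overlapped. The log2 CPM differences within control, mimic and inhibitor were 0.50, 0.43 and 0.46 for Nefh and 0.24, 0.10 and 0.15 for Ina. The ratio of Nefh to Ina was 1.42 to 1.51 in the libraries numbered 4 and 1.16 to 1.24 in the other 9. Ina shares its locus with Nt5c2 on the opposite strand, which reached 4655 counts.

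Prph did not pass. It measured 1382, 1568, 1471 and 1471 TPM in controls 1 to 4, 1401, 1398, 1425 and 1582 TPM in the mimics, and 1515, 1422, 1398 and 1555 TPM in the inhibitors. Its log2 fold change was 0.11 (95% interval -0.05 to 0.27, adjusted p = 0.255, edgeR), and control 2 was nearly as high as mimic 4. Without control 2 it passed, with an adjusted p of 0.0285, as it did without the control group (0.0332).

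Mapt, tau, was also higher in each group. It stood at 57.1, 53.8, 55.6 and 79.6 TPM in controls 1 to 4, 58.8, 62.3, 55.2 and 79.1 TPM in the mimics, and 58.2, 57.0, 54.1 and 77.1 TPM in the inhibitors. The 9 libraries numbered 1 to 3 lay together, and the 3 numbered 4 were apart from them in every group. The fold was 1.40 (log2 0.49 ± 0.0430, adjusted p = 1.36e-05, edgeR), and within control, mimic and inhibitor the log2 CPM differences were 0.50, 0.50 and 0.46.

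Map1b, a large scaffold-like protein of growing axons, had the highest log2 fold change, 0.52 ± 0.112 (1.44-fold, adjusted p = 0.00334, edgeR), with a wide spread among the other libraries. It stood at 457.8, 268.8, 352.0 and 591.0 TPM in controls 1 to 4. The mimics gave 490.2, 455.4, 359.7 and 522.4 TPM and the inhibitors 332.8, 406.1, 368.4 and 520.8 TPM. Control 2 and inhibitor 1 were the lowest 2 of the 12 libraries. Map2 had its lowest values in the same 2 libraries, 4.60 and 5.45 TPM, and its fold was 1.29 (log2 0.37 ± 0.0950, adjusted p = 0.0096, edgeR). In TPM the range of Map2 in number 4 overlapped that of the others, with mimic 4 at 7.15 and control 1 at 7.18. The log2 CPM differences within control, mimic and inhibitor were 0.73, 0.35 and 0.51 for Map1b and 0.58, 0.21 and 0.32 for Map2, so both were widest in control.

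Tubb3 rose 1.35-fold (log2 0.44 ± 0.0801, adjusted p = 0.00135, edgeR). Its level was 979.7, 1145.9, 1039 and 1405 TPM in controls 1 to 4, 986.5, 1271, 1009 and 1501 TPM in the mimics, and 1238, 1199.5, 967.0 and 1465 TPM in the inhibitors. Within control, mimic and inhibitor the log2 CPM differences were 0.39, 0.54 and 0.39. The libraries numbered 4 were again the highest of each group, and inhibitor 1 stood above control 1 and mimic 1. Reads of Tubb3 may be shared with other beta-tubulins, whose sequences are close. In the annotation used here Tubb3 also overlaps Gm20388, a protein-coding gene on the same strand that is not among the deposited genes. Stmn2 had a log2 fold change of -0.0027 (95% interval -0.11 to 0.10, adjusted p = 0.969), a value whose sign turned with DESeq2 scaling.

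**Figure D3:**
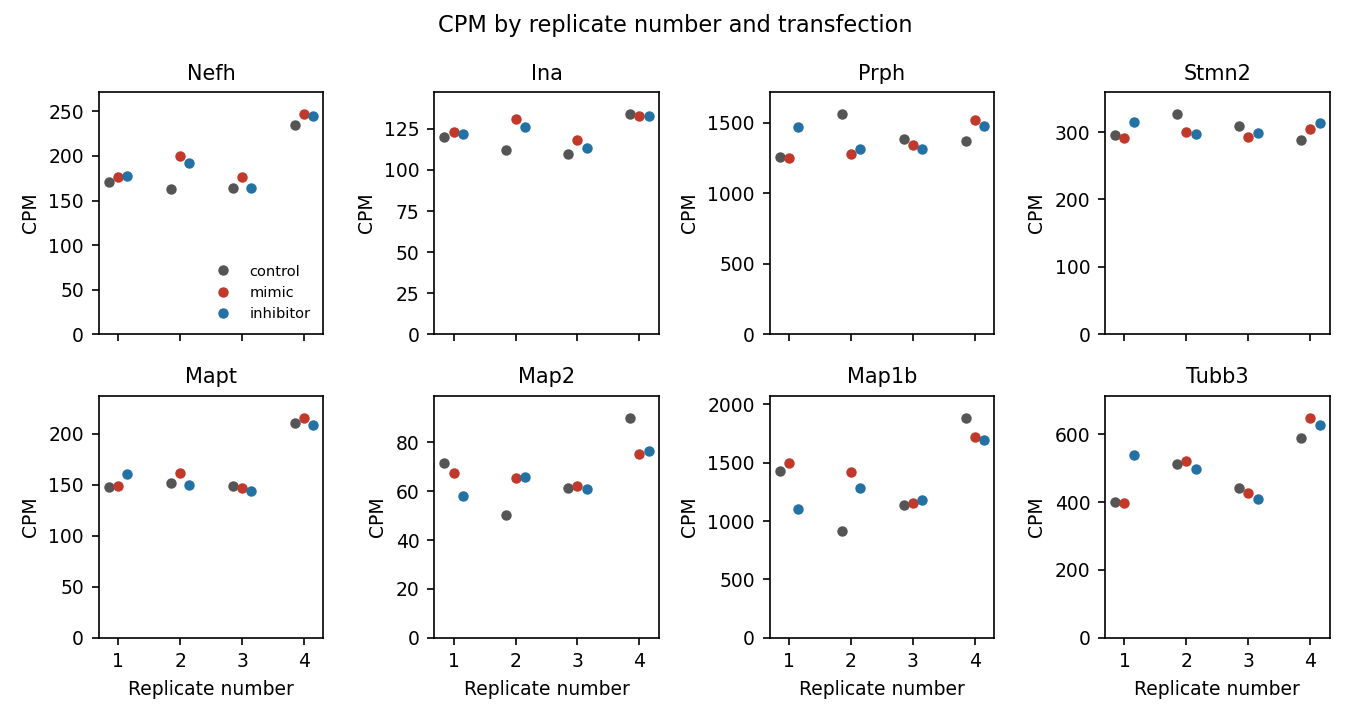
CPM on scaled library sizes against replicate number for the 8 tested genes, 1 point per library, coloured by transfection, each axis starting at 0. The 3 points of number 4 lie highest for Nefh, Mapt, Map1b, Tubb3, Map2 and Ina, and control 2 is the lowest point for Map1b and Map2 and the highest for Prph.

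Each transfection group holds 1 library numbered 4, so whether the difference varied with transfection has no replicate of its own in any group. A test of the interaction in edgeR gave unadjusted p from 0.297 to 0.938 and an adjusted p of 1 for each of the 8 genes, which does not show that the differences were alike. The calls for Nefh, Mapt, Map1b and Tubb3 held when any 1 library or any 1 group was left out. That for Ina was lost without control 4 (adjusted p = 0.159) or inhibitor 4 (0.0786), without the mimic group (0.0822) or the inhibitor group (0.113) and with unscaled library totals (0.0882), and that for Map2 was lost without control 4 (0.109). With limma on log2(TPM + 1) the adjusted p was 0.0825 for Ina and 0.0704 for Map2.

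Other measures were set beside the number. Of the 12 sympathetic neuroblastoma markers, 8 were lower in number 4 and 1 higher, and their summed level was 5992 to 6113 TPM there and 6279 to 7337 TPM in the other libraries. Of 9 pan-neuronal markers, 4 were higher and 1 lower, with sums of 2480 to 2505 TPM in number 4 and 2452 to 2597 TPM in the others. Over all genes, 20.4% were called higher and 21.1% lower. Uchl1, the lower marker, had a mean of 1667 TPM and weighed most in these sums. Gap43, Elavl3, Elavl4 and Uchl1 also belong to the growth cone list below. Summed levels of the other marker lists in number 4 and in the other libraries were 0.35 to 0.902 and 0.197 to 0.729 TPM for astrocytes, 3.85 to 4.77 and 3.11 to 4.38 TPM for oligodendrocytes and Schwann cells, and 1.07 to 1.73 and 0.807 to 1.27 TPM for fibroblasts. They were 0 to 0.439 and 0.0421 to 1.17 TPM for immune cells and 3.50 to 4.39 and 3.31 to 4.14 TPM for endothelial cells. Looked at after seeing the data, the 2304 longest genes, by the length that the deposited TPM imply, differed from the 2304 shortest by 0.161, 0.0589 and 0.0735 in log2 CPM in control 4, mimic 4 and inhibitor 4. Control 1 and mimic 1, at 0.0941 and 0.0948, lay above mimic 4 and inhibitor 4, so this difference did not separate number 4. The lowest differences were -0.215 in control 2 and -0.117 in inhibitor 1, and the other 5 libraries lay between -0.0724 and 0.037. The median of the shortest genes alone, as deviation from each gene's mean on unscaled library totals, did separate number 4. It was -0.0973, -0.0698 and -0.0657 in control 4, mimic 4 and inhibitor 4, and -0.00731 to 0.0737 in the other libraries. Map1b, Map2 and Mapt lie at the 83.5th, 99.5th and 76.5th percentile of that length. Nefh, Tubb3 and Ina, which also rose, lie at 14.8, 6.52 and 9.62. The part of these measures in the differences by number was not tested.

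The other genes of the cytoskeleton were described from lists made for this work, without the 10 genes. In the transfection comparisons 0 list genes were called. The counts for number 4 stand beside 20.4% of all genes called higher and 21.1% lower, and no list was tested against the others. In number 4 against 1 to 3, the intermediate filament list had 6 of 10 tested genes higher and 1 lower, with a median log2 fold change of 0.471, where the median of all genes was -7.05e-05. Nes rose by 0.99 ± 0.0553 (adjusted p = 7.28e-07, edgeR) and Vim by 0.45 ± 0.0639 (0.000262), while the lamin gene Lmnb2 fell by 0.17 (0.0314).

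The tubulin list had 9 of 14 genes higher and 1 lower, with a median of 0.426. Tubb6, a beta-tubulin found in many non-neuronal tissues, rose by 0.89 ± 0.0688 (adjusted p = 5.81e-06, edgeR) and Tubb2b, a beta-tubulin of developing brain, by 0.82 ± 0.0666 (7.92e-06). Tubg2, a gamma-tubulin of nucleation sites, fell by 0.23 (0.0197). The share of Tubb3 in the summed tubulin TPM was 4.46% to 4.59% in number 4, inside its range of 4.19% to 4.81% in the others.

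Of 22 tested microtubule-associated and plus-end protein genes, 13 were higher and 2 lower, with a median of 0.233. Map1a, the adult relative of Map1b, rose by 0.44 ± 0.0397 (adjusted p = 1.51e-05, edgeR) and Ckap5, a microtubule polymerase, by 0.61 ± 0.0782 (0.000134). Clip3 fell by 0.24 (0.0062) and Dclk2, a doublecortin-like kinase, by 0.20 (0.0212). The stathmin, severing and modifying list had 4 of 26 genes higher, 8 lower and 14 not called (median -0.0425). Stmn1, the widely expressed stathmin, fell by 0.39 ± 0.0478 (0.000106) and Ttl, tubulin tyrosine ligase, by 0.33 (0.000676), whereas Stmn4 rose by 0.62 ± 0.0849 (0.000207) and Vash1, a tubulin detyrosinating enzyme, by 0.52 (0.000118).

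Spectrin, ankyrin and spectraplakin genes, which tie the membrane to actin and filaments, had 7 of 13 higher and 2 lower (median 0.481). Sptbn1, a beta-spectrin, rose by 0.83 (adjusted p = 2.29e-05, edgeR) and Plec, the linker plectin, by 0.48 (6.59e-06), while Add1, an adducin, fell by 0.24 (0.0144). Growth cone and axon outgrowth genes had 8 of 19 higher and 3 lower (median 0.0915), with Gap43, a growth cone protein, up by 0.39 (5.17e-05), the adhesion gene Nrcam up by 0.72 (0.000121), the actin-binding Ablim1 down by 0.60 (6.1e-05) and the ubiquitin hydrolase Uchl1 down by 0.20 (0.033).

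Kinesin and dynein genes had 7 of 26 higher, 4 lower and 15 not called (median -0.0192). Mapk8ip3, a motor adaptor, rose by 0.46 (adjusted p = 8.23e-05, edgeR) and the motor Kif3a by 0.37 (0.00137), while the neuronal kinesin Kif5a, which carries neurofilaments, fell by 0.62 (1.63e-05) and Dync1li2, a dynein chain, by 0.39 (0.000956). Of 17 kinases and phosphatases acting on tau or neurofilaments, 4 were higher, 3 lower and 10 not called (median 0.0425), shares close to those over all genes. The tau tubulin kinases Ttbk1 and Ttbk2 rose by 0.35 (0.000111) and 0.67 (0.00266), and the microtubule affinity kinases Mark2 and Mark3 fell by 0.37 (0.000226) and 0.29 (0.0012).

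**Figure D4:**
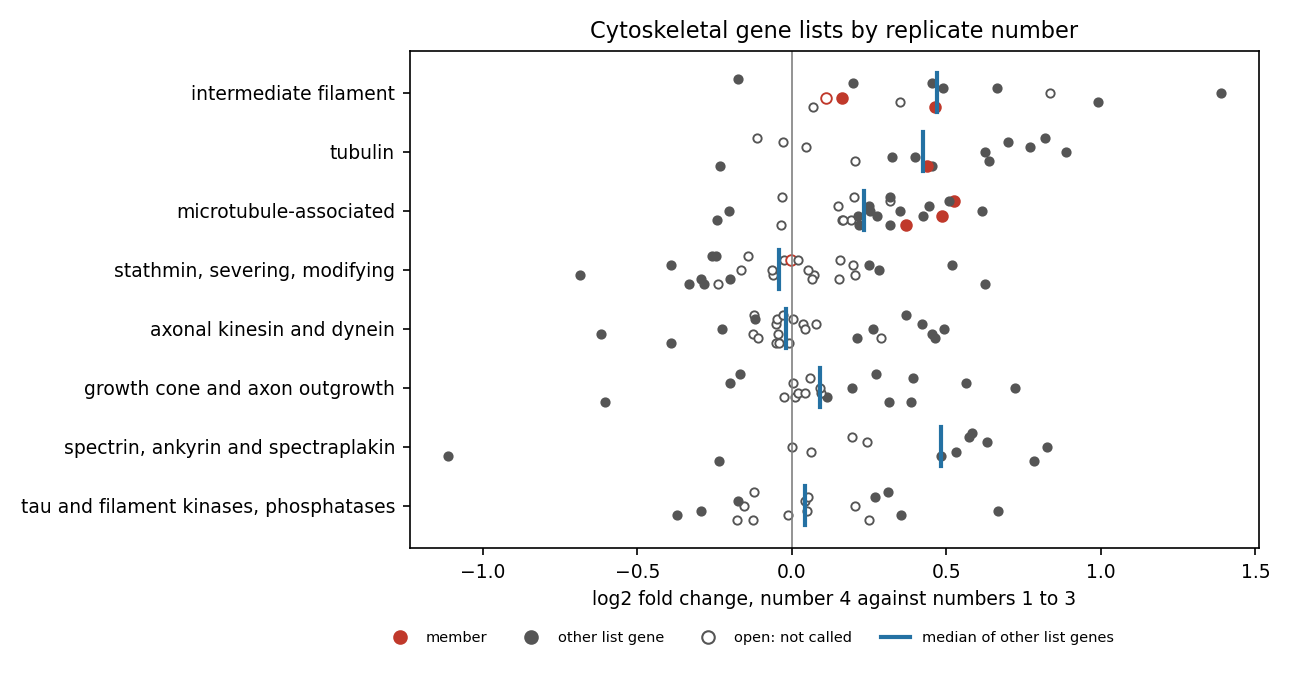
Log2 fold change of number 4 against numbers 1 to 3 for each tested gene of 8 lists, with the 10-gene set in red, other genes in grey, open symbols for genes not called and a blue bar for the median of the other list genes. The medians of the filament, tubulin and spectrin lists lie between 0.426 and 0.481, and that of the stathmin list at -0.0425.

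Promoter sequence was at hand for 5 of the 10 genes, Ina, Prph, Map2, Map1b and Tubb3, from RefSeq on GRCm38.p6, as 250 bases before to 50 after the start. They are shown for 3 genes, Map1b, Tubb3 and Prph, 5' to 3' on the gene's strand. Map1b and Tubb3 were both higher in number 4, as were Ina and Map2, which are not shown. Prph did not pass. Capitals mark TATAAA and GGGCGG in either orientation.
Map1b, chr13:99516553-99516852, minus strand: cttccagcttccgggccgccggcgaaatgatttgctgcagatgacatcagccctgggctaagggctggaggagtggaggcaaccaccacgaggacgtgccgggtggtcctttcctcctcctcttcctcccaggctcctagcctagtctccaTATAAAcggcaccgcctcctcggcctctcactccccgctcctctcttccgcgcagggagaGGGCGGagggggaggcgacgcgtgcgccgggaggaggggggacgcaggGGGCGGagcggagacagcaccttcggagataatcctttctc
Tubb3, chr8:123411303-123411602, plus strand: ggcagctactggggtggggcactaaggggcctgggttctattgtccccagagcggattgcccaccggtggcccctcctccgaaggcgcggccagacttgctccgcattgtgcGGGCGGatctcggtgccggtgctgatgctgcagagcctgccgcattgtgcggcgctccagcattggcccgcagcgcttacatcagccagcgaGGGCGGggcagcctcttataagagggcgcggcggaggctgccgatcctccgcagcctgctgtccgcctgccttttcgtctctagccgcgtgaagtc
Prph, chr15:99054924-99055223, plus strand: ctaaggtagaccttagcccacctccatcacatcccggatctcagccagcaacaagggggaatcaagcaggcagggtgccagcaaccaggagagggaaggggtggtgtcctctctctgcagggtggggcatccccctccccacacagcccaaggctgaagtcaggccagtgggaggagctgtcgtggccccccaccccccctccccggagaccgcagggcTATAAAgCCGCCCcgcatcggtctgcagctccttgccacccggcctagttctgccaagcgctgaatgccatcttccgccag
TATAAA was found once in Prph, starting 31 bases before the start site, and once in Map1b, 99 bases before it, and in 13.6% of 32851 promoters in the table. GGGCGG occurred 5 times in Map2, 2 times each in Ina, Map1b and Tubb3 and 1 time in Prph, and in 35.7% of all promoters. The E-box CACGTG (7.15% of all) and the cyclic AMP element TGACGTCA (1.79%) were in none of the 5. GC content was 64.7% in Prph, 65.7% in Map1b, 67.3% in Tubb3, 71.7% in Ina and 77.7% in Map2, against a median of 52.7% over all promoters. The count of CpG dinucleotides was 10 in Prph and 23 to 37 in the other 4, against a median of 7. These windows describe the reference sequence, and the libraries hold no measure of binding or methylation there.

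The genes most like each of the 8 in log2 CPM over the 12 libraries, among those of at least 10 CPM, were listed by Pearson correlation as a description. The libraries numbered 4 raised such values for some pairs and lowered them for others, so the correlation over the other 9 libraries is given too. Map1b went with Kat6a, Prrc2c and Opa1 (r = 0.994 each over 12, 0.989 to 0.993 over 9) and Map2 with Ivns1abp, Slc8a1 and Ccdc186 (0.989 to 0.99, and 0.979 to 0.983). Nefh went with Schip1, Olfm1 and Mast2 (0.988 to 0.989, and 0.926 to 0.964) and Mapt with Myh9, Sox9 and Slc2a1 (0.991 to 0.993, but 0.858 to 0.917 over 9). Tubb3 was closest to Farsa, Anxa6 and Hsp90ab1 (0.986 to 0.993, and 0.965 to 0.985). Ina was closest to Ptpra, Psmd1 and Ppp1r2 (0.953 to 0.962, and 0.916 to 0.961), Prph to Vasp, Eif3h and Tbl3 (0.972 to 0.979, and 0.974 to 0.987) and Stmn2 to Ctsd, Arf5 and Rtn2 (0.938 to 0.965, and 0.939 to 0.983). All values share the same libraries, depth and scaling.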

How the data were processed

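The authors deposited 2 tables of 15767 genes: read counts per gene, as whole numbers, and TPM. The submitters' processing notes list fastp, STAR, featureCounts, StringTie, edgeR and GRCm39. For versions, filters and strandedness the sources used here give nothing. The deposited TPM are counts over a fixed length (their ratio to the counts had a CV of at most 0.201% over 11249 genes above 50 counts) and so add no independent measurement.

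The 10 genes, the lists and the tests were chosen with earlier results of these data known. The count test was edgeR 4.0.16 (R 4.3.3; TMM, filterByExpr, robust quasi-likelihood fit to all 12 libraries, two-sided, Benjamini-Hochberg over 13014 genes, threshold 0.05). Transfection comparisons used group alone, and comparisons by number used group and number. Alternatives were DESeq2 1.42.0, limma 3.58.1, other scaling, no filter and libraries or groups left out. The tests were also tried on simulated counts. For the mimic comparison these held no differences by replicate number, unlike the data, so no conclusion is drawn from them. All 10 genes were named, with the 2 list genes of smallest p per direction among those called for number 4 at 10 CPM or more, and the 3 genes most correlated with each tested gene. No library pair of a group agreed within sampling noise (chi-square over its degrees of freedom, 19.1 to 218). P-values of the transfection comparisons measure the spread between these libraries, which may be technical. Those by number measure the scatter of same-numbered libraries across groups. If the libraries of a number share an origin, which the labels do not say, they are not independent replicates of that number.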

Additional observations from a re-analysis of the deposited data

Results flagged for a closer look

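Within groups of 4, a library was singled out where its gap to the nearest other exceeded Dixon's critical value of 0.829 of the group's range. Of 28 groups tested, 5 were singled out, where chance alone does so for about 0.05 of groups. The groups of different genes share the same libraries, so the 5 are not independent and no excess is read from them. Mapt in control 4 stood at 79.6 TPM, with the other controls between 53.8 and 57.1 TPM. Prph in mimic 4 stood at 1582 TPM, with the other mimics between 1398 and 1425 TPM. Stmn2 in control 4 was the lowest of its group at 282.8 TPM, with the others between 297 and 299.5 TPM. Nefl in inhibitor 4, at 0.372 TPM, and Nefm in mimic 3, at 0.048 TPM, were the only libraries of their groups above 0, and rest on 13 and 4 counts. In such a group the gap equals the whole range at any level, so the rule always singles it out and the 0.05 does not apply. Of these 5 values, 4 belong to libraries numbered 4.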

How the results depend on the processing

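With the replicate number as a block, edgeR called 0 genes in each transfection comparison (191, 161 and 139 at an unadjusted p under 0.05, of which 1, 0 and 0 were among the 10, the 1 being Nefh at 0.0315, adjusted p = 1). The deviations of same-numbered libraries correlated at -0.0709 to 0.476 for mimic and control, -0.0696 to 0.526 for inhibitor and control and 0.0349 to 0.444 for mimic and inhibitor. As not every pair passed 0.1 in any comparison, and the labels name no shared origin, the numbers were not taken as pairs, although 9 of 12 libraries correlated best with their own number. DESeq2 called 3 genes in mimic against control, 1 in inhibitor against control and 6 in mimic against inhibitor. Leaving out 1 library gave 0 to 1 genes in mimic against control and in mimic against inhibitor, 1 being reached without control 2. It gave 1807 to 5884 genes for replicate number, with 5884 without control 2, 1877 without control 4, 2180 without mimic 4 and 1807 without inhibitor 4. Number 4 against 1 to 3 called 3109 genes without the mimic group and 3366 without the inhibitor group, which leave fewer libraries. The 8mer alone left 0 genes with a seed site. The following log2 fold changes, none of them called, changed sign, and the cause was not tested. In mimic against control, Map2 was 0.034 and 0.043 with limma (pseudocounts 1 and 0.1), 0.0080 with the block, 0.094 with numbers 1 to 3 and 0.0040 with number 4 as a term, and Tubb3 was -0.011 with numbers 1 to 3. In inhibitor against control, Prph was 0.0066 with DESeq2, 0.0067 with its size factors and 0.0016 with library totals, Map1b 0.0045 and 0.0046 with limma, and with numbers 1 to 3 Map1b was 0.038, Map2 0.010 and Stmn2 -0.034. For number 4, Stmn2 was 0.0021 with DESeq2, 0.0024 with its size factors and 0.044 without the control group. With 1 library left out, mimic against control ranged from -0.11 to 0.0098 for Prph, -0.11 to 0.17 for Mapt, -0.14 to 0.15 for Map2, -0.032 to 0.32 for Map1b and -0.11 to 0.14 for Tubb3. Inhibitor against control ranged from -0.042 to 0.23 for Nefh, -0.043 to 0.057 for Prph, -0.12 to 0.15 for Mapt, -0.19 to 0.095 for Map2, -0.17 to 0.18 for Map1b, -0.012 to 0.20 for Tubb3 and -0.023 to 0.037 for Stmn2. Mimic against inhibitor ranged from -0.078 to 0.17 for Nefh, -0.0074 to 0.069 for Ina, -0.11 to 0.16 for Mapt, -0.00032 to 0.14 for Map2 and -0.21 to 0.049 for Tubb3, and Stmn2 in number 4 from -0.032 to 0.043.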
